A study of Mus musculus with 6 samples.

Results

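The genes that encode collagen chains were examined in cultured dermal fibroblasts with and without stabilized β-catenin. Chains were taken by symbol, as every gene whose name is Col, a type number, the letter a and a chain number, and 44 of the 41126 genes in the expression table met this rule. Each was placed by the known structure of its protein among the fibrillar, basement membrane, FACIT (fibril-associated with interrupted triple helices), network-forming, beaded-filament, anchoring-fibril and transmembrane collagens, and Col26a1 and Col28a1 were left without a class. Bulk RNA-seq was carried out on 6 cultures of mouse ventral dermal fibroblasts isolated at P4 from a CD1, C57Bl6 background. The 3 control cultures received an adenovirus that carries GFP (AdGFP) and are labelled +/+. The 3 GOF (gain of function) cultures received an adenovirus that carries Cre (AdCre), which removes exon 3 of a floxed Ctnnb1 allele and leaves cells labelled Ctnnb1 Δex3/+, whose β-catenin lacks the sites that mark it for degradation. The sources conflict on the controls: the treatment label, 366 to 500 MOI for 6 h, names the Cre virus for all 6 samples, and the study's methods describe controls that carry the same floxed allele, not +/+, and received the GFP virus. Those methods give 366 to 500 MOI for the Cre virus and 366 MOI for the GFP virus, so the dose may also have differed between the groups. The cultures came from 4 animals, 2 of which gave a culture to each group: control replicate 0 with GOF replicate 2, and control replicate 2 with GOF replicate 0. By these labels, control replicates 0 and 2 come from animals that also gave GOF cultures, so those animals carried the floxed allele and were not +/+. The remaining control shares no animal with a GOF culture. The virus, and possibly its dose, differed between the groups together with β-catenin. Effects of Cre, of GFP and of dose therefore cannot be told apart from those of the deletion, and the share of recombined cells in each culture is not part of the values used here.

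Collagens are trimers of α chains wound into a triple helix, made of identical chains in some types and of chains from different genes in others. In the dermis, type I and III fibrils give tensile strength, type V and XI chains sit within fibrils and set their diameter, and FACIT collagens coat fibril surfaces. Type IV networks form the basement membrane under the epidermis and around vessels, type VI forms beaded microfibrils close to the cell, and type VII anchors the epidermis to the dermis.

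The libraries held 35980831 to 42834467 assigned fragments. Axin2, a feedback target of β-catenin, was at 0.144, 0.136 and 0.177 FPKM (fragments scaled to transcript length and library depth) in control and at 19.2, 14.4 and 18.7 FPKM in GOF, a log2 fold change of 6.98 (SE 0.26, adjusted p = 4.95e-05). Ctnnb1 itself, counted over the whole gene and so blind to exon 3, had a log2 fold change of -0.05 (SE 0.15, adjusted p = 0.844). All 10 fibroblast markers were detected, with a summed level of 3308 to 4247 FPKM in control and 3411 to 3834 in GOF, and Dcn, at 1058 ± 103 and 330.0 ± 105 FPKM (SD, n = 3 each), was called lower. Of the 10 keratinocyte markers, 8 were under 1 FPKM in every library, Krt5, Krt14 and Cdh1 among them, while Itga6 and Dsp were higher in GOF and took the list's sum from 9.36 to 13.6 FPKM in control to 38.2 to 59.8. Of the 8 tested endothelial markers, Kdr was called higher and Tek and Flt1 lower (log2 fold changes 1.77, -2.27 and -1.38), while Pecam1, Cdh5, Vwf, Tie1 and Cldn5 stayed under 1 FPKM in every library, with list sums of 13.8 to 19.7 FPKM in control and 13.1 to 15.2 in GOF. The adipocyte list differed between the groups, since its 4 testable members (Pparg, Lpl, Cebpa and Fabp4) were all lower in GOF and its sum went from 66.8 to 237 FPKM in control to 8.0 to 20.3 in GOF, although Adipoq, Plin1, Lep and Cidec were under 1 FPKM throughout. Summed pericyte and smooth muscle markers were at 113 to 164 FPKM in control and 219 to 311 in GOF. That sum was carried by Cnn1, which was called higher, at 86.9 and 211 FPKM on average. The median log2 fold change of the list was -0.36, with Rgs5, Kcnj8, Abcc9, Mcam and Cspg4 below 0 and Myh11 and Notch3 above. Summed skeletal muscle markers were at 23.6 to 28.3 and 139 to 173 FPKM, with Acta1 called higher, 8 of 10 under 1 FPKM in every library and Pax7 at 0. The macrophage list (14.4 to 23.5 FPKM in control, 11.5 to 29.4 in GOF), the cartilage or bone list (2.14 to 3.41 and 1.90 to 2.65) and the Schwann cell or melanocyte list (10.9 to 13.3 and 5.98 to 10.4, without overlap) had low sums, but Csf1r, Matn3 and Hapln1 were called higher (log2 fold changes 1.52, 1.51 and 2.06) and Sox9 and Mlana lower (-2.30 and -2.48). The part of these lists in the collagen values was not tested. Control replicate 0 differed from the other controls by transcript length. Across 15337 genes its deviation from the other controls had a correlation of -0.33 with log2 transcript length, against 0.19 and 0.30 in the other controls and -0.14 to 0.18 in GOF. With GC content the correlation was -0.24 in GOF replicate 1, against 0.115 and 0.133 in the other GOF libraries and -0.14 to 0.08 in control. These values describe genes, which are not replicates. The longest transcripts of the chains called lower held 49.6% (Col28a1) to 62.9% GC (Col11a2), and that of Col25a1 45.9%. The part of length and GC content in the collagen values was not tested.

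Among the 44 chains, 33 had enough fragments to be tested, 3 had a failed estimate and 8 were under the filter on low counts. A chain was called when its fold change exceeded 2 with an adjusted p under 0.05 in edgeR's quasi-likelihood test. Of the 33, 1 was called higher in GOF, Col25a1, and 9 were called lower, Col1a2, Col4a1, Col4a2, Col5a3, Col8a2, Col11a2, Col14a1, Col16a1 and Col28a1. Of all 15462 genes tested, 12.3% were called, 6.69% higher and 5.64% lower. At an adjusted p under 0.05 with no minimum fold there were 12 chains, against 21.2% of all genes, the added chains being Col8a1 (higher) and Col6a1 (lower). The median log2 fold change of the tested chains was -0.37 and that of all tested genes -0.02, and 20 chains had a fitted value below 0 and 13 above. For 17 chains no FPKM of either group lay within the range of the other, 12 of them lower in GOF and 5 higher, where 39.5% of all genes were without overlap, 19.2% lower and 20.3% higher. With the animal as a block in the model, 3 chains were called higher (Col25a1, Col7a1 and Col4a6) and 6 lower. The group effect in that model rests on the 2 animals cultured both ways, with 1 residual degree of freedom. Control replicate 1 and GOF replicate 1 each have an animal of their own and do not inform it. In bulk RNA, fewer cells that express a chain and less RNA per cell cannot be told apart.

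**Figure D1:**
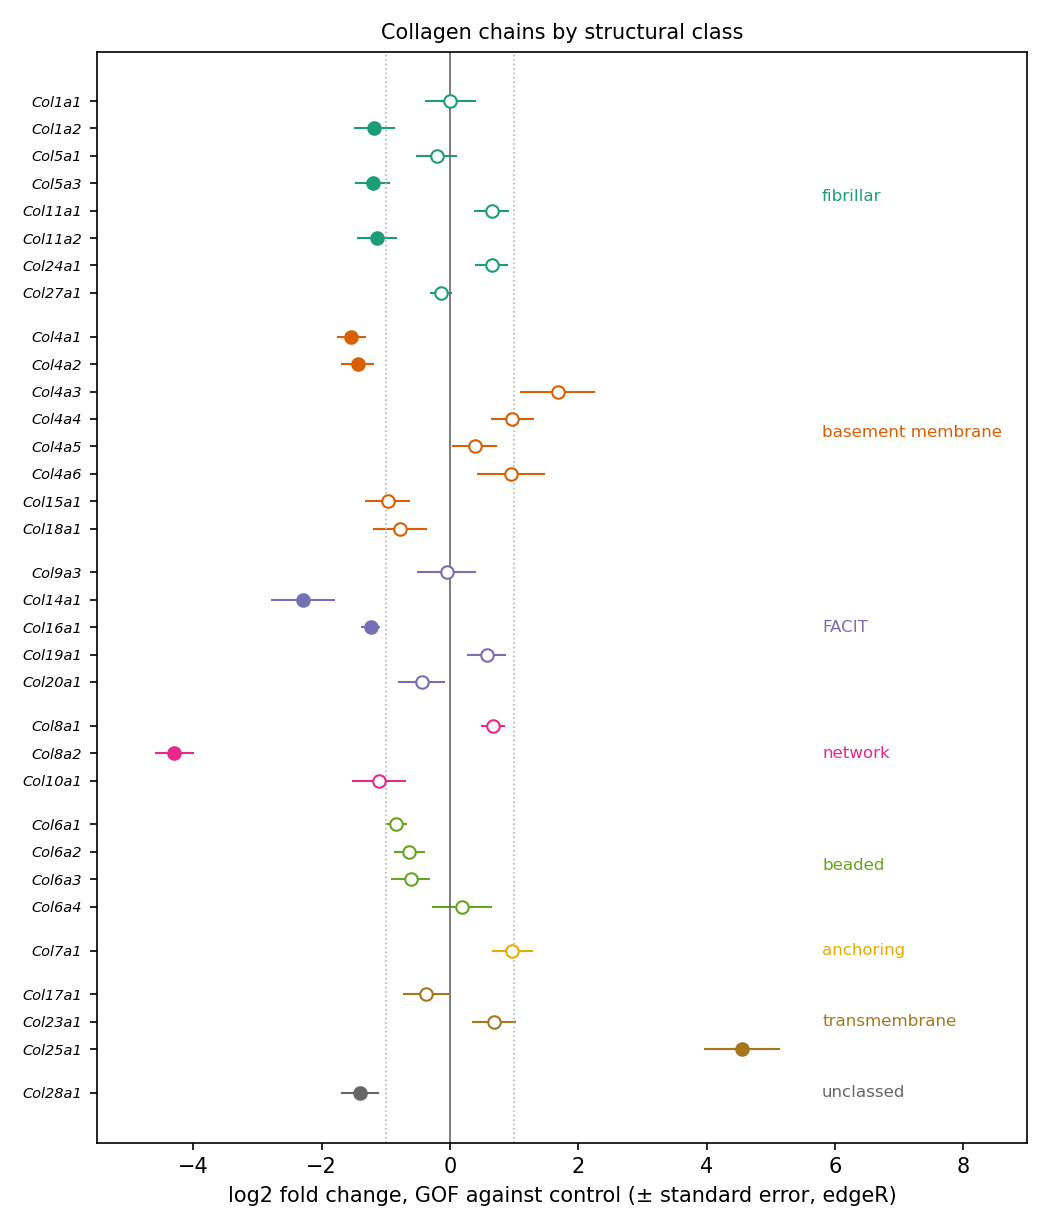
Each point is the edgeR log2 fold change of GOF against control for a tested chain, with its standard error as a horizontal bar, grouped and coloured by class, filled where the chain was called and open where it was not; dotted lines mark a log2 fold change of 1 in either direction. Col8a2, at -4.29, and Col25a1, at 4.56, lie farthest from 0, and chains of the same class lie on both sides of 0 in every class with more than 1 tested chain.

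The fibrillar class was mixed, with 3 of 8 tested chains called lower, none higher, and a median log2 fold change of -0.17. The chains of type I collagen, the main fibril of the dermis, differed from each other. Col1a1, the chain present as a pair in each type I trimer, was at 247, 115 and 135 FPKM in control and 248, 124 and 128 FPKM in GOF, so that the groups overlapped fully (log2 fold change 0.0045, SE 0.40, adjusted p = 0.995). Within the animals cultured both ways its log2 ratio of GOF to control was 0.99 and -0.92, in opposite directions. Col1a2, its partner (chromosome 6, 4504814 to 4541544, plus strand, GRCm38), was at 585, 954 and 1061 FPKM in control and 540, 300 and 320 FPKM in GOF. All GOF libraries were below all controls, though GOF replicate 0 was close to control replicate 0, and Col1a2 was lower in GOF by a log2 fold change of -1.18 (SE 0.32, adjusted p = 0.0375). That call held in 2 of the 6 fits that left out a library (adjusted p from 0.0158 to 0.116), being lost without control replicate 1 (0.110), control replicate 2 (0.105), GOF replicate 1 (0.116) or GOF replicate 2 (0.0919). With the animal as a block the change was -0.88 (adjusted p = 0.0186), under the 2-fold threshold. The other main fibril chains of skin could not be compared: Col3a1, the type III chain, was at 913, 824 and 644 FPKM in GOF and Col5a2 at 861, 688 and 968 FPKM, while in control Cuffdiff marked both as holding too many fragments and listed them at 0, which is a missing value and not silence. These genes are neighbours on chromosome 1, with 24614 bp between their ends.

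Among the minor fibrillar chains, which are built into type I fibrils, Col5a1 was at 76.4, 103 and 98.7 FPKM in control and 97.9, 46.9 and 102 FPKM in GOF. Its groups overlapped (log2 fold change -0.20, SE 0.32, adjusted p = 0.692), and the fitted value turned to 0.24 with the animal block and to 0.10 without GOF replicate 1. The study, which used Cuffdiff and Seqmonk, describes Col5a1 as up-regulated in GOF. Here no change of Col5a1 was called in any of the 17 alternatives. Col5a3, a less abundant type V chain on chromosome 9 (20770050 to 20815067, minus strand), was at 3.83, 3.15 and 2.50 FPKM in control and 1.55, 0.963 and 1.63 FPKM in GOF. The groups did not overlap, and Col5a3 was lower in GOF (log2 fold change -1.2, SE 0.28, adjusted p = 0.0213), with -0.89 and an adjusted p of 0.0205 under the animal block, below the 2-fold threshold. It stayed called in 3 of the 6 fits that left out a library and not without control replicate 1 (adjusted p = 0.0627), GOF replicate 0 (0.0654) or GOF replicate 1 (-0.96, 0.0376).

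Col11a1 and Col11a2, chains best known from cartilage fibrils, lay on opposite sides of 0. Col11a1 was at 50.7, 70.6 and 68.6 FPKM in control and 99.8, 61.7 and 142 FPKM in GOF, with GOF replicate 1 inside the control range (log2 fold change 0.65, SE 0.28, adjusted p = 0.143). Col11a2 (chromosome 17, 34039437 to 34066685, plus strand) was under 1 FPKM everywhere, at 0.799, 0.758 and 0.631 FPKM in control and 0.360, 0.212 and 0.398 FPKM in GOF. The groups did not overlap and the change was -1.13 (SE 0.31, adjusted p = 0.0397), but it was called in only 1 of the 6 fits that left out a library, the fit without GOF replicate 2 (adjusted p from 0.0150 to 0.131 over the 6, and from 0.0707 in the others), and fell under the 2-fold threshold with the animal block (-0.97, adjusted p = 0.0392). Col24a1, at 3.49 to 5.50 FPKM in control and 3.72 to 9.77 in GOF, and Col27a1, at 1.2 ± 0.156 and 1.18 ± 0.290 FPKM (SD, n = 3 each), did not pass (adjusted p = 0.112 and 0.619). Col2a1, the cartilage fibril chain, had at most 4 fragments in a library.

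The basement membrane class had 2 of 8 tested chains called lower and none higher, and both were the chains of the common type IV network, α1α1α2. Col4a1 was at 187, 250 and 248 FPKM in control and 88.5, 64.0 and 89.3 FPKM in GOF. Its partner Col4a2 was at 77.8, 117 and 117 FPKM in control and 46.2, 29.7 and 41.7 FPKM in GOF. For both, every GOF library was well below every control. Col4a1 fell by 1.53 on the log2 scale (SE 0.22, adjusted p = 0.00342) and Col4a2 fell by 1.44 (SE 0.25, adjusted p = 0.00767), and both stayed called in each of the 17 alternatives tried. Leaving out a library moved Col4a1 between -1.67 and -1.37 and Col4a2 between -1.62 and -1.23. Within the animals cultured both ways, Col4a1 was lower in GOF by log2 ratios of -1.44 and -1.02, and Col4a2 by -1.29 and -0.82.

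Col4a1 and Col4a2 lie head to head on chromosome 8 and their starts meet: Col4a1 spans 11198423 to 11312826 on the minus strand and Col4a2 11312805 to 11449287 on the plus strand, so that the gene models overlap by 22 bp.

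The other type IV chains, which form the networks of kidney, lung, eye and the epidermal basement membrane, did not pass the test. Col4a5, the only abundant chain of the 4, was at 46.0, 50 and 46.6 FPKM in control and 53.9, 35.0 and 104 FPKM in GOF. GOF replicate 2 was far above the controls and GOF replicate 1 below them, and the log2 fold change was 0.39 (SE 0.35, adjusted p = 0.472), turning to -0.13 without GOF replicate 2. Col4a6, its head-to-head neighbour on the X chromosome 1308 bp away, was likewise highest in GOF replicate 2 and lowest in GOF replicate 1, at 0.443, 0.528 and 0.423 FPKM in control and 0.765, 0.311 and 1.69 FPKM in GOF (log2 fold change 0.96, SE 0.53, adjusted p = 0.242). With the animal as a block Col4a6 rose by 1.40 (SE 0.30, adjusted p = 0.0184), in a model with 1 residual degree of freedom, and without GOF replicate 1 by 1.37 (adjusted p = 0.0466), while limma-voom with a within-animal correlation did not call it (0.97, adjusted p = 0.163). Col4a3 and Col4a4, head to head on chromosome 1 with 71 bp between them, were near the limit of detection. Col4a3 was at 0.0127, 0.0431 and 0.0218 FPKM in control and 0.102, 0.156 and 0.0511 FPKM in GOF, from 5 to 48 fragments a library, and Col4a4 at 0.0410, 0.0636 and 0.0825 FPKM in control and 0.152, 0.109 and 0.111 FPKM in GOF. For neither did the groups overlap, GOF being higher, and neither passed (log2 fold change 1.68, adjusted p = 0.0810 and 0.98, adjusted p = 0.0779). With a within-animal correlation in limma-voom Col4a4 was called higher (1.05, adjusted p = 0.0156), and without GOF replicate 2 so was Col4a3 (2.06, adjusted p = 0.0312). Thus the head-to-head pair with the most RNA had negative fitted values and the other head-to-head pairs positive ones.

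**Figure D2:**
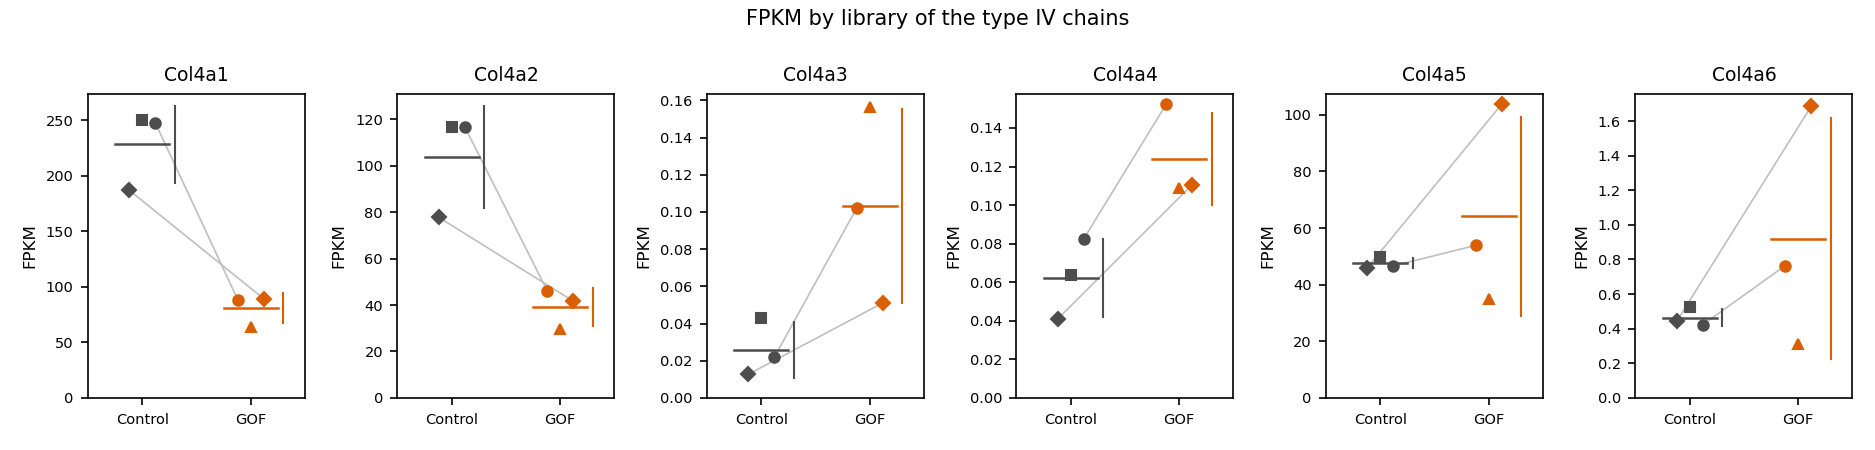
FPKM of the 6 type IV chains by library, with a separate scale for each chain, grey for control and orange for GOF; the marker shape stands for the animal, grey lines join cultures of the same animal, horizontal lines are group means and vertical bars the SD. Col4a1 and Col4a2 are lower in all 3 GOF libraries, and GOF replicate 2 (diamond) is highest for Col4a5 and Col4a6, at 104 and 1.69 FPKM.

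The remaining basement membrane chains belong to the multiplexins, whose C-terminal parts can be released as endostatin-like fragments. Col15a1 was at 0.677, 0.765 and 0.785 FPKM in control and 0.224, 0.441 and 0.561 FPKM in GOF. Its groups did not overlap, but its log2 fold change of -0.97 did not pass (SE 0.35, adjusted p = 0.0924), though it was called with a within-animal correlation in limma-voom (-1.0, adjusted p = 0.0306) and when GOF replicate 2 was left out (-1.42, adjusted p = 0.0172). Col18a1 was at 8.58, 5.11 and 4.28 FPKM in control and 2.64, 2.02 and 4.97 FPKM in GOF, with GOF replicate 2 inside the control range (log2 fold change -0.77, SE 0.42, adjusted p = 0.235), and was called lower without that library (-1.33, adjusted p = 0.0399).

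In the FACIT class 2 of 5 tested chains were called lower and none higher. Col16a1, a FACIT collagen of the papillary dermis, was at 46.3, 54.7 and 61.2 FPKM in control and 28.0, 23.5 and 22.6 FPKM in GOF. The groups did not overlap, the libraries of each group lay close together, and Col16a1 fell by 1.24 on the log2 scale (SE 0.15, adjusted p = 0.00159). It was called in each of the 17 alternatives, between -1.34 and -1.14 when a library was left out, and its log2 ratio of GOF to control was -1.24 and -0.89 in the animals cultured both ways. Col14a1, which binds fibril surfaces in the reticular dermis and tendon, was at 7.72, 9.44 and 9.29 FPKM in control and 0.931, 1.09 and 3.63 FPKM in GOF. GOF replicate 2 was higher than the other GOF libraries and still below all controls. Col14a1 (chromosome 15, 55307750 to 55520803, plus strand) fell by 2.28 on the log2 scale (SE 0.50, adjusted p = 0.0173). The call was lost without GOF replicate 0 (-1.97, adjusted p = 0.0599) or GOF replicate 1 (-1.98, adjusted p = 0.0523).

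The 250 bases before the RefSeq start of Col16a1 (chr4:130047590-130047839, GRCm38.p6, plus strand) are shown as those of the called chain with the smallest standard error, with the GC box GGGCGG and the CCAAT box in capitals on whichever strand they read.
Col16a1: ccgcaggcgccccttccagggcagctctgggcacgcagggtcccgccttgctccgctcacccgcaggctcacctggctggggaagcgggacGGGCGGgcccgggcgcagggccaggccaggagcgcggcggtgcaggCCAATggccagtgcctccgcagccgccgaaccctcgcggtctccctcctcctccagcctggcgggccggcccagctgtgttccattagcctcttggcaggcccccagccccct
RefSeq windows of 300 bases (250 before a gene start and 50 after) were found for 35 of the 44 chains, 38 windows among 32851 in all. GGGCGG on either strand was found in 35.7% of all windows and in 23 of the 38 collagen windows (60.5%), and CCAAT on either strand in 37.4% and in 13 (34.2%). The TCF/LEF core CTTTGA or CTTTGT, on either strand, was found in 31.2% of all windows and in 13 of the 38 collagen windows (34.2%), those of Col5a3 and Col28a1 being the only ones of called chains. TATAAA was found in 13.6% of all windows and 5 collagen windows (13.2%). A match of letters is a description and not a bound site.

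Col12a1, the most abundant FACIT chain, was at 297, 489 and 577 FPKM in control (454 ± 143, SD, n = 3), while in GOF Cuffdiff marked it as holding too many fragments and listed it at 0, so no comparison was made. Col19a1, Col20a1 and Col9a3 were at 0.0916 to 0.569 FPKM in every library and did not pass (log2 fold changes 0.57, -0.44 and -0.05, adjusted p = 0.233, 0.440 and 0.953). Col9a1 and Col9a2, which join Col9a3 in type IX collagen of cartilage, and Col22a1, found at tissue junctions, were under the filter. Their fragments ran from 0 to 15 a library apart from Col22a1 in GOF replicate 2, at 34 fragments against 1 to 7 in the other libraries.

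The network class held the chain with the largest fitted fall, Col8a2, and its partner, which moved the other way. Type VIII collagen is a short-chain collagen of hexagonal lattices, known from the Descemet membrane of the cornea and from vessel walls, and its chains are Col8a1 and Col8a2. Col8a2 was at 3.01, 4.10 and 4.20 FPKM in control and 0.208, 0.166 and 0.241 FPKM in GOF, from 473, 806 and 752 fragments against 38, 21 and 47. The lowest control was more than an order of magnitude above the highest GOF library. Col8a2 (chromosome 4, 126286793 to 126314330, plus strand) was 19.6-fold lower in GOF (log2 fold change -4.29, SE 0.30, adjusted p = 2.59e-04), between -4.54 and -4.05 when a library was left out, and was called in each of the 17 alternatives. In the animals cultured both ways its log2 ratio was -4.30 and -3.57. Col8a1 (chromosome 16, 57624258 to 57754737, minus strand) was far more abundant, at 102, 112 and 84.7 FPKM in control and 144, 134 and 198 FPKM in GOF. All GOF libraries were above all controls, and Col8a1 rose by 0.67 on the log2 scale (SE 0.19, adjusted p = 0.0402), which is under 2-fold. With any library left out its adjusted p was 0.0549 to 0.125, and in the animals cultured both ways the log2 ratio was 0.80 and 0.91. The third chain of the class, Col10a1 of hypertrophic cartilage, was at 0.561, 0.495 and 0.481 FPKM in control and 0.191, 0.127 and 0.404 FPKM in GOF, without overlap and without passing (log2 fold change -1.11, SE 0.42, adjusted p = 0.103), though it was called with a within-animal correlation in limma-voom (-1.13, adjusted p = 0.0274) and when GOF replicate 2 was left out (-1.69, adjusted p = 0.0158).

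The 250 bases before the RefSeq starts of the type VIII genes are shown together, as chains of the same collagen that moved apart, with GGGCGG in capitals on whichever strand it reads. The Col8a2 window is chr4:126286544-126286793 on the plus strand and the Col8a1 window chr16:57754738-57754987 on the minus strand, both GRCm38.p6.
Col8a2: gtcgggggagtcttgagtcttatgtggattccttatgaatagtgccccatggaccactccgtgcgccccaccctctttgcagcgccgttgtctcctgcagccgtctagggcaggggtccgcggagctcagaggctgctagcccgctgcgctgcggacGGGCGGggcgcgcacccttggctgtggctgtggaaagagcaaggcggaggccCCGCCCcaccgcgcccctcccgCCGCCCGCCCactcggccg
Col8a1: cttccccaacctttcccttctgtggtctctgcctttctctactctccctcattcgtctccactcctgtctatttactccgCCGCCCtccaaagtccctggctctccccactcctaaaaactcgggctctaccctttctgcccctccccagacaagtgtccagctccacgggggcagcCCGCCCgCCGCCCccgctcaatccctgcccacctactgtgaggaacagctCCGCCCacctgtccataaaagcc
Each window held 4 GC boxes, at positions -93, -41, -19 and -15 of Col8a2 and -170, -73, -66 and -23 of Col8a1, counted from the start site to the first base of the match in the direction of the gene. Neither held a TCF/LEF core, a CCAAT box or a TATAAA, so none of the motifs searched set the windows apart.

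**Figure D3:**
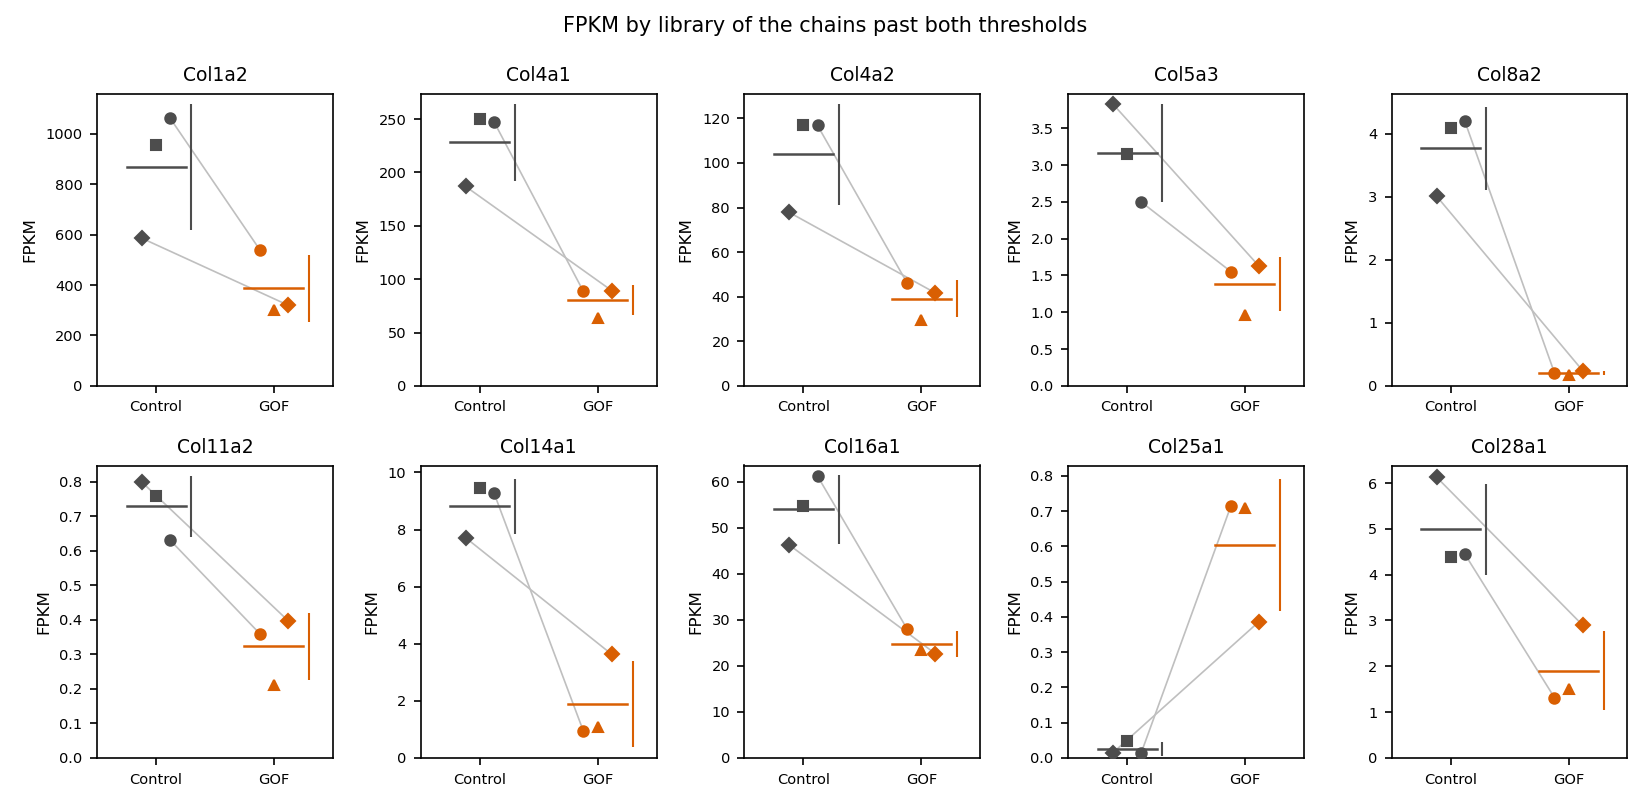
FPKM by library of the 10 chains past both thresholds, with a separate scale from 0 for each chain, grey for control and orange for GOF; marker shapes stand for animals, grey lines join cultures of the same animal, horizontal lines are means and vertical bars the SD. The groups overlap in none of the panels, Col25a1 is the only chain with GOF above control, and Col14a1 and Col28a1 have GOF replicate 2 (diamond) nearest to the controls, at 3.63 and 2.90 FPKM.

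In the beaded class no chain was called, and the 3 abundant type VI chains, which assemble into the same microfibril, all had fitted values below 0. Col6a1 was at 150, 168 and 190 FPKM in control and 118, 93.2 and 81.0 FPKM in GOF. Its groups did not overlap and it fell by 0.84 on the log2 scale (SE 0.17, adjusted p = 0.0129), under 2-fold. Col6a2, 85161 bp from Col6a1 on chromosome 10, was at 31.4, 38.0 and 41.6 FPKM in control and 35.0, 21.3 and 18.0 FPKM in GOF, and Col6a3, the large chain, at 57.0, 87.8 and 124 FPKM and 88.8, 59.3 and 54.8 FPKM. For both, GOF replicate 0 lay inside the control range, and neither passed (log2 fold changes -0.63 and -0.61, SE 0.24 and 0.30, adjusted p = 0.103 and 0.203). Col6a4 had 5 to 15 fragments a library (log2 fold change 0.19, adjusted p = 0.809), and Col6a5 and Col6a6 were under the filter, Col6a6 with 2, 6 and 3 fragments in control and 24, 14 and 8 in GOF.

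Col7a1, the chain of anchoring fibrils, which is made by both fibroblasts and keratinocytes, was at 1.54, 2.40 and 1.84 FPKM in control and 5.32, 3.93 and 2.88 FPKM in GOF. All GOF libraries were above all controls. Its log2 fold change of 0.97 did not pass (SE 0.31, adjusted p = 0.0644). With the animal as a block, a model that rests on the animals cultured both ways, it rose by 1.32 (adjusted p = 0.00456). It rose by 1.07 with a within-animal correlation in limma-voom (adjusted p = 0.0141) and by 1.01 on log2(FPKM + 0.1) in limma (adjusted p = 0.0343). In GOF replicate 1 the FPKM stood higher relative to the fragments than elsewhere, since its 1045 fragments, fewer than the 1145 of GOF replicate 2, gave 3.93 FPKM. Of the 10 keratinocyte markers, 8 were under 1 FPKM in every library, Krt5 and Krt14 among them, while Dsp (log2 fold change 5.74, 0.0778 to 4.27 FPKM on average) and Itga6 (3.04, 11.5 to 41.5 FPKM) were called higher in GOF. For Itga6 the fit, made on fragments, gave a larger rise than the FPKM means do. The part of these markers in the Col7a1 values was not tested.

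Of the transmembrane chains, 1 of 3 tested was called. Col25a1, the precursor of a component of amyloid plaques that is also needed for motor axons to enter muscle, was at 0.0147, 0.0494 and 0.0142 FPKM in control and 0.714, 0.709 and 0.387 FPKM in GOF, from 4, 14 and 2 fragments against 195, 189 and 106. The lowest GOF library was far above the highest control, though all were under 1 FPKM. Col25a1 (chromosome 3, 130131501 to 130599877, plus strand) rose by 4.56 on the log2 scale (SE 0.59, adjusted p = 0.00232), between 4.11 and 5.61 when a library was left out, and the size of this value rests on few control fragments. With 1 added to the FPKM before taking logs the difference was 0.64, and it was not tested where an FPKM of 1 in 3 libraries was required. Col17a1, the hemidesmosome collagen of keratinocytes, and Col23a1 were at 0.143 to 0.497 FPKM and did not pass (log2 fold changes -0.37 and 0.69, adjusted p = 0.50 and 0.199), and Col13a1 had 0 to 4 fragments a library.

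Col28a1, which carries von Willebrand factor domains like the type VI chains and was left without a class, was at 6.13, 4.39 and 4.45 FPKM in control and 1.32, 1.5 and 2.90 FPKM in GOF. The groups did not overlap, and Col28a1 (chromosome 6, 7997808 to 8192617, minus strand) fell by 1.40 on the log2 scale (SE 0.29, adjusted p = 0.0141). The call was lost without GOF replicate 0 (-1.2, adjusted p = 0.0527) or GOF replicate 1 (-1.28, adjusted p = 0.0548). Col26a1 had 1 to 6 fragments a library.

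FPKM is scaled by length, so chains could be added within a class, leaving out chains with a failed estimate. The summed FPKM of the 8 basement membrane chains was 320, 423 and 417 in control and 192, 132 and 242 in GOF, without overlap, a log2 difference of the group means of log2 sums of -1.07 (exact two-sided permutation p = 0.1, the smallest that 3 against 3 libraries allow). The 8 FACIT chains without Col12a1 summed to 63.7 ± 8.34 FPKM in control and 27.6 ± 2.03 in GOF (SD, n = 3 each; log2 difference -1.2, exact permutation p = 0.1), and Col16a1 made up most of that sum. The network class went the other way, at 104 ± 13.4 and 159 ± 34.9 FPKM (0.61, exact permutation p = 0.1), a sum carried by Col8a1 while the class median over chains was -1.11. The transmembrane class summed to 0.639 ± 0.0915 and 1.37 ± 0.246 FPKM (1.10, exact permutation p = 0.1), and the unclassed pair to 5.19 ± 1.04 and 1.98 ± 0.797 FPKM (-1.44, exact permutation p = 0.1). The sums of the 9 fibrillar chains without Col3a1 and Col5a2 overlapped between the groups, at 969, 1254 and 1373 FPKM in control and 996, 545 and 698 FPKM in GOF (-0.71, exact permutation p = 0.2), as did those of the beaded class, at 296 ± 58.7 and 190 ± 46.3 FPKM (SD, n = 3 each; -0.65, exact permutation p = 0.2). Of the FPKM summed over the 41 chains with values, the network class held 5.15 ± 1.18% in control and 12.4 ± 3.08% in GOF and the basement membrane class 18.8 ± 0.794% and 14.4 ± 3.38% (SD, n = 3 each). These shares leave out Col3a1, Col5a2 and Col12a1, each of them among the most abundant chains where it has a value.

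**Figure D4:**
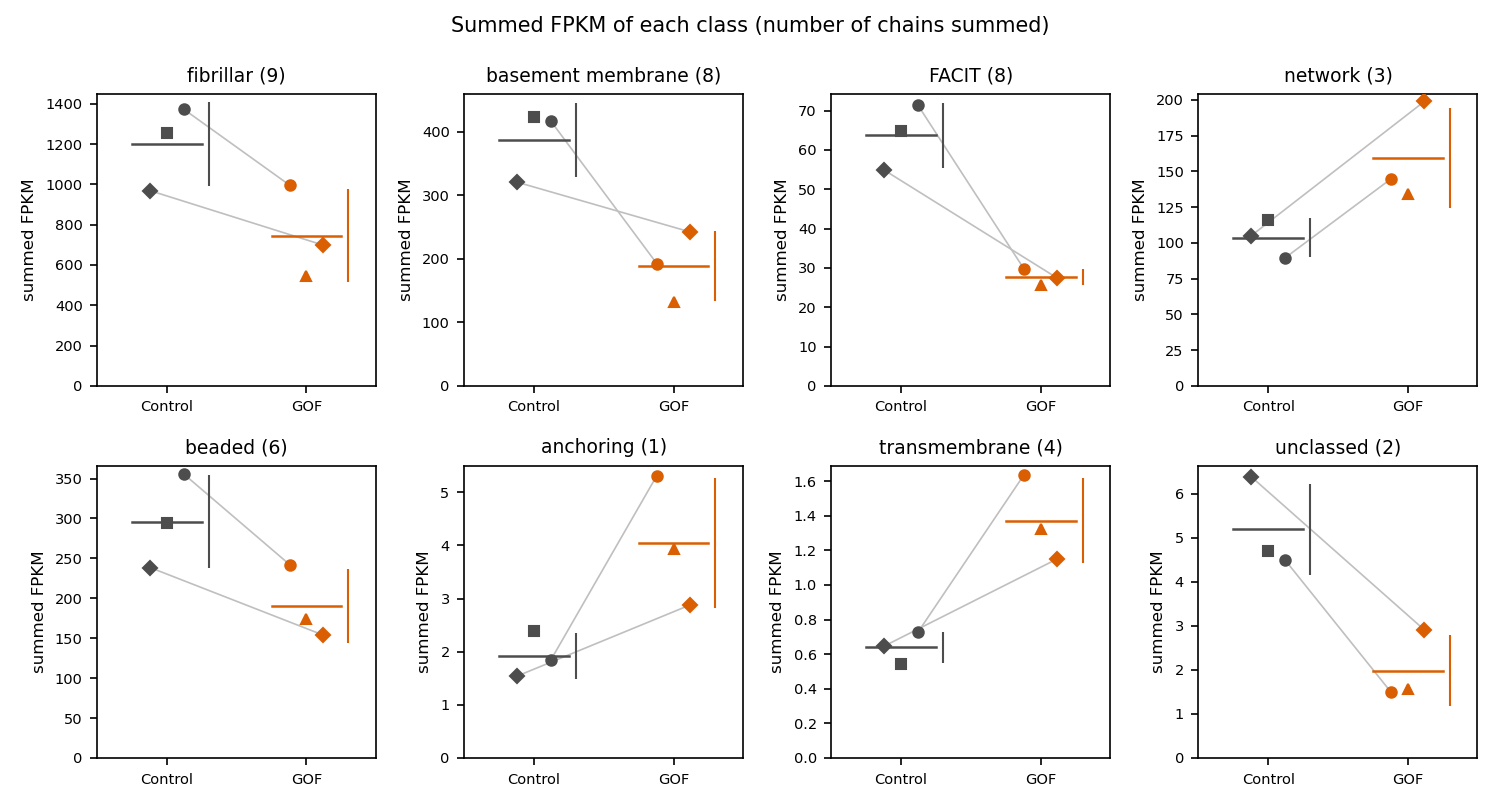
Summed FPKM of each class by library, with the number of chains summed in brackets, axes from 0 and a separate scale for each class; marker shapes stand for animals, grey lines join cultures of the same animal, horizontal lines are means and vertical bars the SD. The GOF libraries lie below the controls for the basement membrane, FACIT and unclassed chains, above them for the network, anchoring and transmembrane chains, and for the fibrillar and beaded chains GOF replicate 0 (circle) lies in the control range and the other GOF libraries below it.

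Ratios of chains that assemble with each other were compared within a library. This removes a scaling factor shared by all genes of a library, but not effects that vary from gene to gene. Of 12 pairs, 9 gave a ratio, since Col5a1/Col5a2 and Col1a1/Col3a1 hold a failed estimate and Col9a1/Col9a2 too few fragments. The ratio of Col8a1 to Col8a2 was 33.7, 27.2 and 20.2 in control and 694, 805 and 822 in GOF. The groups were far apart (log2 difference 4.87, exact two-sided permutation p = 0.1), and the log2 difference was 5.10 and 4.61 within the animals cultured both ways. The ratio of Col11a1 to Col11a2 was 63.4, 93.1 and 109 in control and 277, 291 and 357 in GOF, also without overlap (1.83, exact permutation p = 0.1; within animals 1.35 and 2.49). Col1a1 to Col1a2 was 0.422, 0.121 and 0.127 in control and 0.459, 0.413 and 0.399 in GOF. Here control replicate 0 lay within the GOF range, and the groups overlapped, with a log2 difference of 1.18 (exact permutation p = 0.3, within animals 1.85 and -0.08). Col4a1 to Col4a2 stayed near its control level, at 2.40, 2.14 and 2.12 in control and 1.92, 2.15 and 2.14 in GOF (-0.10, exact permutation p = 0.6), whereas the level of both chains fell. The ratio of Col4a5 to Col4a6 was 104, 94.7 and 110 in control and 70.5, 112 and 61.5 in GOF (-0.38, exact permutation p = 0.4). Col6a1/Col6a2, Col6a3/Col6a1, Col4a3/Col4a4 and Col1a1/Col5a1 differed by -0.18, 0.44, 1.0 and 0.25 on the log2 scale, with exact permutation p of 0.2, 0.2, 0.3 and 0.9. Adjusted by Benjamini-Hochberg over the 9 ratios, the smallest of these permutation p was 0.45.

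**Figure D5:**
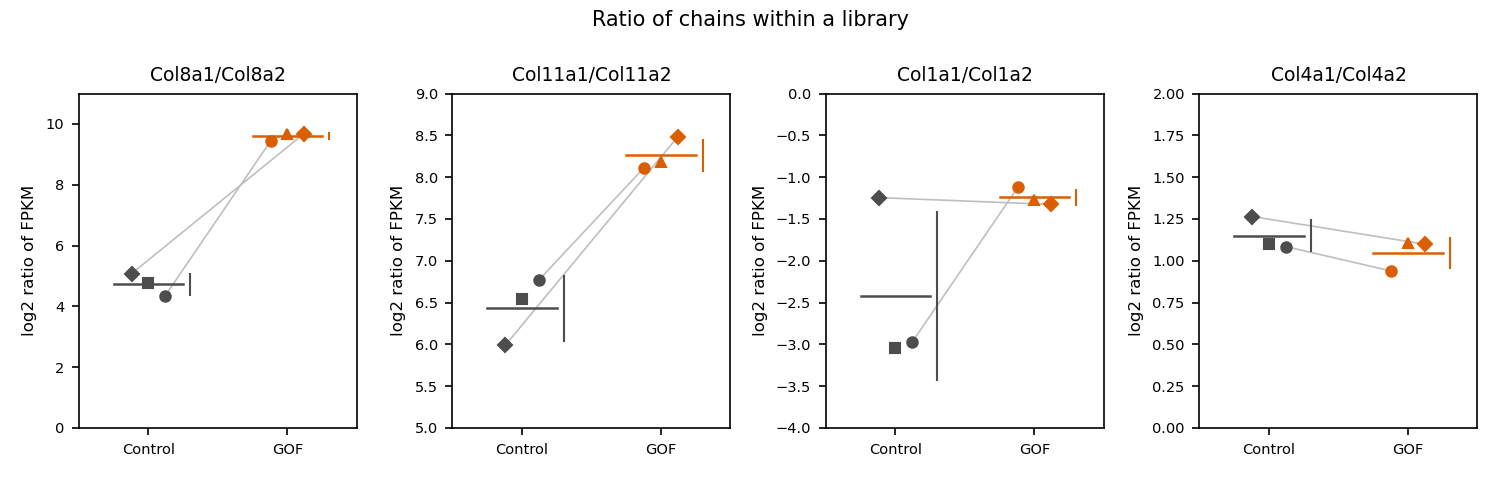
Log2 ratio of the FPKM of partner chains within each library, with a separate vertical scale for each pair; grey is control and orange GOF, marker shapes stand for animals, grey lines join cultures of the same animal, horizontal lines are means and vertical bars the SD. The type VIII and type XI ratios do not overlap between the groups, the type I ratio of control replicate 0 (diamond) lies with the GOF libraries, and the type IV ratio overlaps.

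The genes that modify, fold, secrete, trim and cross-link collagen were counted beside the chains. Of 34 in the table, 32 were tested, 2 were called higher and 1 lower, where 6.69% and 5.64% of all tested genes were called in these directions, with a median log2 fold change of -0.11. Loxl4, a lysyl oxidase that starts cross-linking, went from 6.88 ± 0.646 to 23.2 ± 5.53 FPKM (SD, n = 3 each; log2 fold change 1.75, edgeR adjusted p = 0.00135). P3h2, a prolyl 3-hydroxylase with a role in type IV collagen, went from 1.75 ± 0.158 to 5.32 ± 1.36 FPKM (1.56, edgeR adjusted p = 0.00230). Adamts2, which removes the N-terminal propeptide of fibrillar procollagens, went from 29.2 ± 4.69 to 11.1 ± 2.13 FPKM (-1.44, edgeR adjusted p = 0.00215). The other tested members did not meet both thresholds, among them the collagen chaperone Serpinh1, at 1141 ± 134 and 789.5 ± 112 FPKM (-0.57, edgeR adjusted p = 0.0811). Of the 11 collagen receptors listed, 9 were tested, none was called higher and 1 was called lower: Itga11, the fibroblast integrin chain for fibrillar collagen, was at 27.7, 65.8 and 68.2 FPKM in control and 15.4, 6.07 and 12.9 FPKM in GOF. Control replicate 0 was the lowest control and still above all GOF libraries (log2 fold change -2.28, SE 0.44, adjusted p = 0.0107).

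Over the members as a whole, 15 chains had a mean of at least 10 FPKM in a group and 21 were under 1 FPKM on average in both groups. Among the 12 abundant chains that could be tested, 4 were called lower (Col1a2, Col4a1, Col4a2 and Col16a1) and none higher. Of all tested genes, whatever their abundance, 5.64% were called lower and 6.69% higher. All 9 chains called lower were lower in GOF within each of the animals cultured both ways, but this is not a separate test. In each of these chains the lowest control was above the highest GOF library in FPKM, so on that measure any pairing of these libraries had to give a fall. The within-animal ratios, on scaled fragments, come from the same libraries as the calls. Of the 10 called chains, 5 stayed called whichever library was left out, namely Col4a1, Col4a2, Col8a2, Col16a1 and Col25a1.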

How the data were processed

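RNA-seq of 3 control and 3 GOF cultures of dermal fibroblasts was analysed from the all-gene table. The authors mapped paired-end reads of 100 bp from stranded libraries to mm10 with TopHat and ran Cuffdiff, whose use of the strand is not given in the sources used here. The deposited estimated counts are unscaled fragments per gene and library. The deposited FPKM values are Cuffdiff's estimates per transcript length after its scaling across libraries, and their ratio to the fragments varied between libraries from gene to gene. The lncRNA table and another 2 per-library columns were left unused. Genes whose estimate failed in any library (32, of which 23 were marked as having too many fragments and listed at 0) were left out of the test.

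Positions come from GENCODE M21 on GRCm38, which held 97.9% of the gene identifiers. Estimated counts, of which 4.95% were not whole, were rounded and fitted over 15462 genes in R 4.3.3 with edgeR 4.0.16 (TMM, filterByExpr, quasi-likelihood test, Benjamini-Hochberg adjustment over all genes), and called at a fold above 2 with an adjusted p under 0.05. Samples were grouped by the labels, without a block. Class sums and chain ratios were compared on log2 FPKM by exact two-sided permutation tests (scipy 1.17.1), whose p is at least 0.1 with 3 against 3 libraries. Promoter windows are RefSeq's on GRCm38.p6. Scripts were tested on simulated data.

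The alternatives were DESeq2 1.42.0, scaling by library totals or upper quartile, dropping the filter on low counts, requiring 1 FPKM in 3 libraries, limma 3.58.1 on log2 FPKM with a pseudocount of 1 or 0.1, a replicate block by number in the labels or by animal, limma-voom with a correlation between cultures of an animal, failed estimates kept at 0, and each library left out. The pairing comes from the animal numbers in the labels. Deviations from the group means correlated at 0.50 and 0.41 between cultures of the same animal and at -0.44, 0.04 and -0.46 between cultures of the same replicate number. The deviations in a group sum to 0, so these correlations depend on each other and are not a test of the pairing.

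The chains, classes, pairs and lists were chosen with earlier results of these data known. Library-wise values are given for called chains, chains with a mean of at least 10 FPKM, failed estimates, Col1a1 and Col7a1, and for some others that were chosen after their values were seen. The cultures within a group came from different animals.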

Additional observations from a re-analysis of the deposited data

How the results depend on the processing

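Of the 10 called chains, the same 10 were called with DESeq2, scaling by library totals or by upper quartile, and all genes kept whatever their counts. The count of chains called higher, 1, was 0 with 1 FPKM required in 3 libraries, where Col25a1 was not tested, 0 in limma on log2(FPKM + 1), 2 on log2(FPKM + 0.1), 3 with a correlation within animals in limma-voom, 3 with failed estimates kept at 0, where Col3a1 and Col5a2 appear as rises from 0, and 1 to 3 when a library was left out. The count called lower, 9, was 4 to 12 when a library was left out, 5 without GOF replicate 0 and 4 without GOF replicate 1. Over all genes 1906 were called, 877 in limma on log2(FPKM + 1), where a larger pseudocount shrinks the folds of low genes, and 1311 to 1961 when a library was left out. The fitted value of Col1a1, 0.0045, was -0.024 under library totals, -0.049 by upper quartile, -0.0032 with no filter and -0.42 to 0.45 when a library was left out. That of Col4a5 ran from -0.13 to 0.68 and that of Col5a1 from -0.43 to 0.10 when a library was left out, and the ratio of Col1a1 to Col5a1 from -0.0495 to 0.72. The cause was not tested, apart from the pseudocount and the filter.

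With the animal as a replicate block, 3 chains were called higher and 6 lower over 2008 called genes, and Col5a1 had a fitted value of 0.24. With a replicate block by label number, which the labels do not tie to a shared animal, 1 was called higher and 7 lower, and 1421 genes were called. A tally over the alternatives was made only for the called chains, the tested chains with a mean of at least 10 FPKM, and Col7a1. In it, 284 values kept their direction and whether both thresholds together were passed, 25 lost the call, 3 gained it and 9 changed sign. The 3 gains were all of Col7a1. Among the tested chains outside this tally, Col4a6, Col10a1 and Col15a1 were each called in 2 alternatives, and Col4a3, Col4a4 and Col18a1 in 1 each. The adjusted p alone crossed 0.05 for Col8a1 (0.0515 by upper quartile, 0.150 with the block by label number, 0.0549 to 0.125 with a library left out) and for Col6a1 (0.0659 with that block, 0.0109 to 0.0536 with a library left out).

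With 3 cultures a group and 2 animals shared between groups, small changes lie below what these libraries can resolve. Chains with few fragments, and Col3a1, Col5a2 and Col12a1 through their failed estimates, were not compared.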
